A study of Mus musculus with 9 samples.

Results

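The heme and iron handling genes described here are Hmox1, Blvra, Blvrb, Cd163, Tfrc, Slc11a1, Slc11a2, Lcn2, Fth1 and Slc40a1. They were listed by name, but with earlier results of these data known. Each was read from the probe set with the highest mean over all 9 arrays, among those that name that gene and no other. Of the 10 listed genes, 9 were measured in this way, among 19938 genes on the array. Slc11a1, which moves iron out of phagosomes, was not analysed here.

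The study set out to find how the response of mouse dendritic cells to bacterial lipopolysaccharide (LPS) depends on the histone demethylase Kdm4d, called JmjD2d in the study. Bone marrow progenitors were grown with the cytokines IL-3, IL-6 and SCF (20 ng/ml of each), then differentiated with GM-CSF for 8 days, the first 4 of them with 5 ng/ml SCF. Each of the 3 groups held 3 cultures, labelled biological replicates 1 to 3 and hybridised to Affymetrix mouse gene arrays with 1 array per culture. The knockdown group carried a retroviral hairpin against JmjD2d, was selected in 2 mM histidinol and received 100 ng/ml LPS for 4 h. The second group was untransduced wild-type cells given the same LPS, and the third was untransduced, unstimulated wild-type cells. No array of cells with a control hairpin and none of unstimulated knockdown cells was analysed here, so effects of the hairpin, of infection and of drug selection cannot be told apart.

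Iron enters most cells bound to transferrin through the transferrin receptor, crosses the endosomal membrane through Slc11a2 (DMT1), is stored in ferritin and leaves through ferroportin, the product of Slc40a1. Phagocytes also take in heme from red cells, which heme oxygenase opens to biliverdin, carbon monoxide and iron before biliverdin reductases make bilirubin. In infection, macrophages are known for holding iron back from microbes by lowering its export, and lipocalin 2 captures the siderophores with which bacteria collect it.

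All values are log2 signals. A gene was called when the adjusted p of limma's moderated test was under 0.05, with Benjamini-Hochberg adjustment over the 19938 genes. The replicate number is called the culture number here, though the labels do not say that arrays of 1 number shared a culture. Arrays that shared this number deviated together from their group means. A fit with that number as a block, referred to as the paired fit, is therefore given beside results whose call it changed. Array medians lay between 7.22 and 7.31, and arrays of 1 group correlated at 0.985 to 0.997. The targeted gene itself, Kdm4d, read 7.43, 7.11 and 7.40 in knockdown arrays, 7.79, 7.54 and 7.74 in LPS-treated wild-type arrays and 7.24, 7.65 and 7.62 in unstimulated wild-type arrays. Knockdown lay below LPS-treated wild type by a log2 difference of -0.37 (SE 0.13, adjusted p = 0.278), which did not pass the test. Of 13 dendritic cell markers, 10 lay above the median gene, with Flt3, Xcr1 and Clec9a below it, and all 11 measured macrophage markers lay above it. Erythroid markers, which would bring heme synthesis genes with them, lay above the median gene in 0 of 8 cases, with mean levels of 6.52 to 6.59 in knockdown, 6.47 to 6.66 in LPS-treated wild-type and 6.44 to 6.53 in unstimulated wild-type arrays.

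LPS raised 3 of the 9 measured genes in wild-type cells, namely Hmox1, Slc11a2 and Lcn2, and lowered 0. Over all genes, 3.99% were called higher and 6.86% lower in the same comparison. In the paired fit the count was 3 higher and 1 lower, Slc40a1, with 5.19% and 9.57% of all genes. Before adjustment, 3 had a positive and 1 a negative difference with a p under 0.05, against 26.3% of all genes in either direction. The groups did not overlap for those same 3 of 9 genes, against 29.3% of all genes. The median log2 difference of the 9 genes was 0.11, against 0.04 over all genes.

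**Figure D1:**
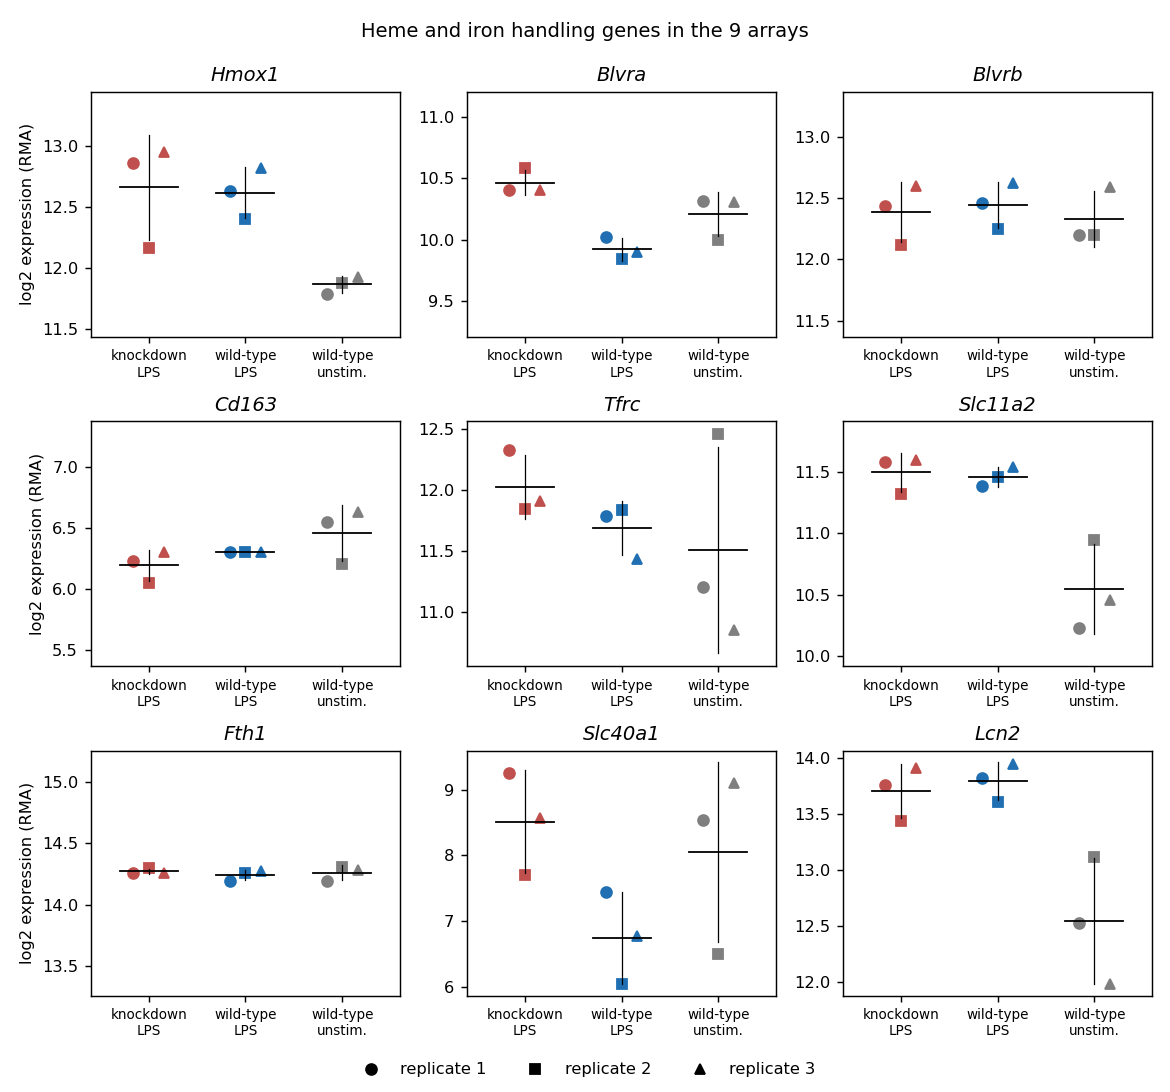
Log2 signal (vertical axes) of each of the 9 measured genes in every array, with knockdown LPS, wild-type LPS and wild-type unstimulated arrays from left to right, points for arrays (1 shape per replicate number), horizontal bars for group means and vertical lines for 1 SD, on axes that differ between panels. Hmox1, Slc11a2 and Lcn2 stood higher in all LPS-treated arrays than in the unstimulated ones, and Slc40a1 and Blvra stood higher in knockdown than in LPS-treated wild-type arrays.

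Among the heme breakdown genes, Hmox1 encodes the inducible heme oxygenase. It read 12.63, 12.40 and 12.82 in LPS-treated wild-type arrays, against 11.79, 11.88 and 11.93 in unstimulated arrays. Every LPS array thus lay above every unstimulated array, by a mean log2 difference of 0.75 (SE 0.20, adjusted p = 0.0472, 1.68-fold). The call was close to the threshold: it was lost without wild-type LPS array 1 or 3, knockdown array 1 or any unstimulated array, with an adjusted p of up to 0.164. In the paired fit the adjusted p was 0.0201. Knockdown arrays read 12.86, 12.17 and 12.95, which spanned the LPS-treated wild-type values. Their difference from LPS-treated wild type was 0.04, with a 95% interval of -0.41 to 0.50.

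Blvra and Blvrb encode the biliverdin reductases. Blvra read 10.41, 10.59 and 10.40 in knockdown arrays, 10.02, 9.84 and 9.90 in LPS-treated wild-type arrays and 10.32, 9.999 and 10.30 in unstimulated arrays. LPS-treated wild-type cells thus had the lowest mean of the 3 groups, and the knockdown arrays did not overlap them. The difference of knockdown from LPS-treated wild type was 0.55 (SE 0.10, 95% interval 0.31 to 0.78, 1.46-fold). It did not pass the test, with an adjusted p of 0.0626 and of 0.0546 in the paired fit. Leaving out unstimulated array 2, which is in neither of the groups compared, brought the adjusted p to 0.0321. LPS-treated less unstimulated wild type was -0.29 (adjusted p = 0.117). Blvrb stayed within 12.12 to 12.63 over all 9 arrays and was not called in any comparison.

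Cd163, the macrophage receptor for hemoglobin bound to haptoglobin, was dim, at the 24.9th percentile of genes. Its signal was 6.23, 6.05 and 6.30 in knockdown arrays, 6.30 in each LPS-treated wild-type array and 6.55, 6.20 and 6.63 in unstimulated arrays. In 4 arrays the value was exactly the same, and no comparison of all 9 arrays called it.

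Of the uptake genes, Slc11a2 encodes the transporter that passes iron out of the endosome. Its signal was 11.39, 11.46 and 11.55 in LPS-treated wild-type arrays, against 10.23, 10.95 and 10.46 in unstimulated arrays. The LPS arrays all lay higher, by 0.92 (SE 0.17, adjusted p = 0.0125, 1.89-fold). Without wild-type LPS array 3 the adjusted p was 0.0581, and without unstimulated array 3 it was 0.0563. Knockdown arrays, at 11.58, 11.32 and 11.60, differed from LPS-treated wild type by 0.04 (95% interval -0.35 to 0.42).

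Tfrc, the transferrin receptor, read 12.32, 11.84 and 11.90 in knockdown arrays, 11.78, 11.84 and 11.43 in LPS-treated wild-type arrays and 11.20, 12.46 and 10.85 in unstimulated arrays. The unstimulated arrays spread most, with array 2 above every other array and arrays 1 and 3 below them all. LPS-treated less unstimulated wild type was 0.18 (adjusted p = 0.771), and by replicate number the difference was 0.58, -0.62 and 0.58. Knockdown less LPS-treated wild type was 0.34 (adjusted p = 0.741). Those 2 groups met at 11.84.

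Lcn2 encodes lipocalin 2, which binds bacterial siderophores. It read 13.82, 13.61 and 13.95 in LPS-treated wild-type arrays, against 12.53, 13.11 and 11.99 in unstimulated arrays. This was the largest difference of the 3 genes called, at 1.25 (SE 0.26, adjusted p = 0.0198, 2.38-fold), and its probe set ranked 133 of 19938 by mean signal. By replicate number the difference was 1.29, 0.50 and 1.96. The adjusted p was 0.0718 without wild-type LPS array 1, 0.0828 without wild-type LPS array 3 and 0.0714 without unstimulated array 1. Knockdown arrays read 13.76, 13.44 and 13.91, a difference from LPS-treated wild type of -0.09 (95% interval -0.68 to 0.50).

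Neutrophils store lipocalin 2 in their granules, so neutrophil markers, granule genes among them, were read beside it. Their mean level was 7.97 to 9.82 in knockdown, 9.25 to 10.44 in LPS-treated wild-type and 8.82 to 9.74 in unstimulated wild-type arrays. After LPS 1 of 14 was called higher and 0 lower in wild-type cells, against 3.99% and 6.86% of all genes. The called gene, Csf3r, encodes a receptor and not a granule protein. The list median was 0.86, against 0.04 over all genes, with 13 positive differences and 1 negative. The part of these markers in the Lcn2 difference was not tested. In such bulk cultures a change in the number of cells of a type and a change in RNA per cell cannot be told apart.

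Fth1, the heavy chain of ferritin, varied least of the 9 genes over all arrays. It read 14.26, 14.30 and 14.26 in knockdown arrays, 14.19, 14.26 and 14.27 in LPS-treated wild-type arrays and 14.19, 14.31 and 14.28 in unstimulated arrays. Its probe set ranked 4 of 19938 by mean signal, close to the top of the scale. No comparison called it.

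Slc40a1 encodes ferroportin, the iron exporter. Its signal was 9.26, 7.70 and 8.57 in knockdown arrays, 7.43, 6.03 and 6.77 in LPS-treated wild-type arrays and 8.54, 6.50 and 9.11 in unstimulated arrays. It varied most of the 9 genes within groups, with an SD of 0.78 in knockdown, 0.70 in LPS-treated wild-type and 1.37 in unstimulated arrays (n = 3 each), and array 2 was the lowest in every group. Within a replicate number the differences were alike: knockdown exceeded LPS-treated wild type by 1.83, 1.66 and 1.80.

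The mean knockdown difference of Slc40a1 was 1.76 (SE 0.69, 95% interval 0.17 to 3.35, 3.39-fold). It did not pass the test, at an adjusted p of 0.324, and in the paired fit, with an SE of 0.34, the adjusted p was 0.0507. LPS-treated less unstimulated wild type was -1.31 (SE 0.69, adjusted p = 0.270). By replicate number this LPS difference was -1.11, -0.47 and -2.34, lower in 3 of 3, and the paired fit called it at an adjusted p of 0.0474. It was also called without unstimulated array 2, at -2.08 (adjusted p = 0.0468).

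**Figure D2:**
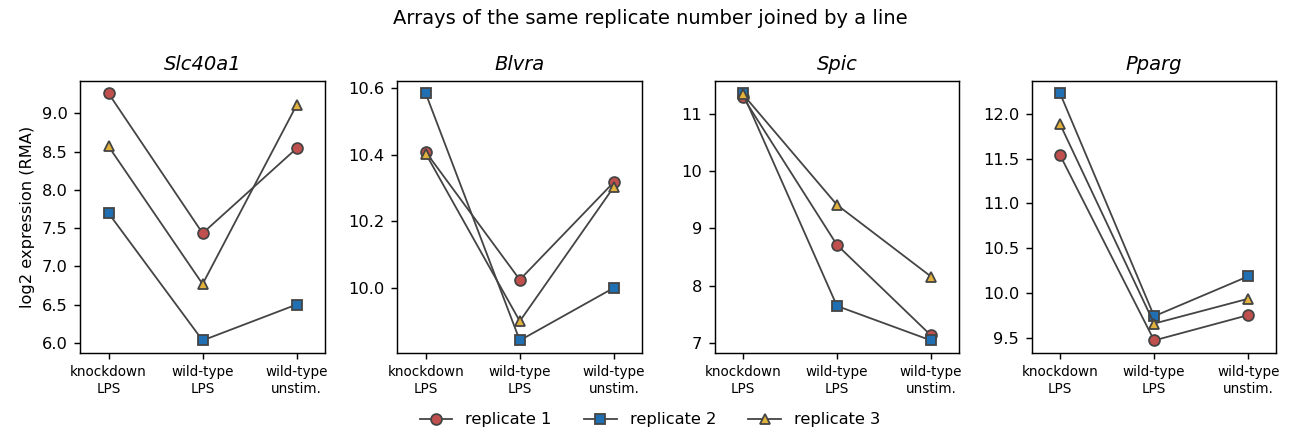
Log2 signal (vertical axes) of Slc40a1, Blvra, Spic and Pparg in the 3 groups, with knockdown LPS at the left, wild-type LPS in the middle and wild-type unstimulated at the right, and a line joining arrays of the same replicate number. The 3 Slc40a1 lines run nearly parallel between knockdown and LPS-treated wild type, with differences of 1.83, 1.66 and 1.80, while number 2 lies lowest throughout.

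Macrophage markers were read beside Slc40a1, since macrophages express ferroportin strongly. Their mean level was 10.99 to 12.05 in knockdown, 11.68 to 12.16 in LPS-treated wild-type and 11.65 to 12.23 in unstimulated arrays. Between knockdown and LPS-treated wild type 0 of 11 macrophage markers were called, against 0.762% of all genes. With so small a share, a count of 0 does not show that these markers were unchanged. Their differences ran from -0.998 to 0.715, with 1 higher and 1 lower at a p under 0.05 before adjustment. Dendritic cell markers averaged 8.58 to 9.57 in knockdown, 9.70 to 10.44 in LPS-treated wild-type and 9.53 to 10.46 in unstimulated arrays. The knockdown arrays thus lay below the LPS-treated wild-type arrays and overlapped the unstimulated ones only between 9.53 and 9.57. Against LPS-treated wild type 0 of 13 were called, against 0.762% of all genes. Before adjustment 7 were lower with a p under 0.05, against 13.1% of all genes in either direction. The paired fit called 6 lower, against 1.24% of all genes. Against unstimulated wild type 2 of 13, Irf8 and Irf4, were called lower and 0 higher, against 6.64% and 4.23% of all genes. The paired fit called 9 lower there, against 8.65% of all genes. The list median was -1.04, against 0.01 over all genes, with 12 negative differences and 1 positive. The part of these markers in the Slc40a1 and Blvra differences was not tested.

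Between knockdown and LPS-treated wild type, 0 of the 9 genes were called by limma, against 0.762% of all genes, 0.401% higher and 0.361% lower. The paired fit also called 0 of 9, against 2.75% of all genes, 1.51% higher and 1.24% lower. Without adjustment for multiple testing, 2 of the 9, Blvra and Slc40a1, were higher with a p under 0.05, against 13.1% of all genes in either direction. The groups did not overlap for 3 of 9, Slc40a1, Blvra and Tfrc, against 16.6% of all genes. The median difference was 0.04, against -0.03 over all genes.

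LPS-treated knockdown cells were also set against unstimulated wild-type cells, a comparison that combines knockdown and LPS and shares its arrays with both others. The same 3 genes were called higher and 0 lower, while 4.23% of all genes were called higher and 6.64% lower. The paired fit again called 3 higher and 0 lower, against 5.62% and 8.65% of all genes. Without adjustment 4 of the 9 were higher and 1 lower with a p under 0.05, against 23.1% of all genes. The groups did not overlap for 4 of 9 genes, against 27.3% of all genes. Slc11a2 differed by 0.96 (SE 0.17, adjusted p = 0.0100), a call kept under each of the 9 single-array omissions. Lcn2 differed by 1.16 (SE 0.26, adjusted p = 0.0255), and its call was lost without knockdown array 1 or 3 or unstimulated array 1 or 3, at up to 0.0977. Hmox1 differed by 0.79 (SE 0.20, adjusted p = 0.0385), a call that held without knockdown array 2 or wild-type LPS array 2 and was lost under the other 7 omissions, at up to 0.131. Slc40a1 differed by 0.46 (adjusted p = 0.816) and Blvra by 0.26 (adjusted p = 0.168).

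**Figure D3:**
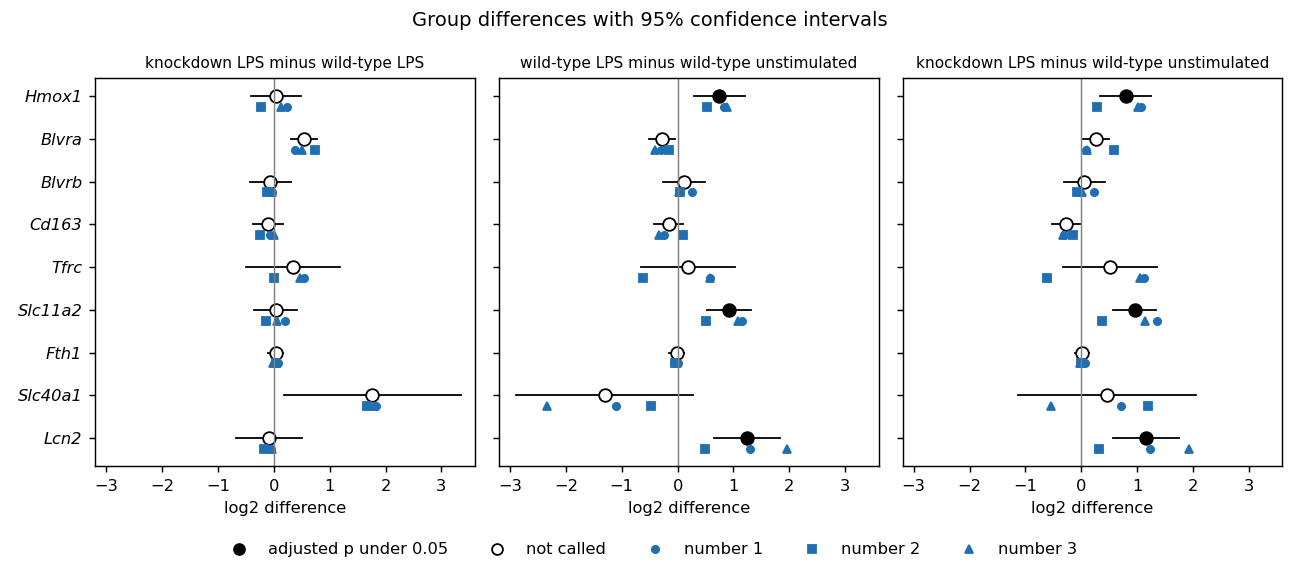
Log2 difference (horizontal axis) of each of the 9 measured genes in the 3 comparisons, as large points with 95% intervals from limma, filled where called, and small points for the differences by replicate number. Slc11a2, Lcn2 and Hmox1 lie above 0 in both comparisons with unstimulated cells and near 0 between knockdown and LPS-treated wild type, where Slc40a1 has the largest difference, 1.76, and the widest interval.

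The number 2 arrays stood apart for several of these genes. Their Slc40a1 signal lay below the mean of numbers 1 and 3 by a log2 difference of -1.22 in knockdown, -1.07 in LPS-treated wild-type and -2.32 in unstimulated arrays. Tfrc and Lcn2 in the unstimulated number 2 array lay above that mean by 1.43 and 0.85. With all number 2 arrays left out, which leaves 2 arrays a group, 24.6% of all genes were called for LPS, with 8.81% higher and 15.8% lower. LPS then called 6 of the 9 genes, adding Slc40a1 at -1.72 (adjusted p = 0.0149), Blvra at -0.35 (0.0175) and Cd163 at -0.29 (0.0298). Knockdown then called 2 of the 9 higher, Slc40a1 at 1.81 (adjusted p = 0.0497) and Blvra at 0.45 (0.0365), against 2.14% of all genes called higher and 3.35% called in either direction. Knockdown with LPS against no stimulation then called 5 of the 9, against 19.1% of all genes. Leaving out all number 1 or all number 3 arrays left 0 of the 9 genes called in any comparison.

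The stretch upstream of Lcn2, the called gene with the largest difference, and that of Blvra, the gene with the lowest adjusted p for knockdown in the unpaired fit, are shown because each holds a motif tied to myeloid or heme-responsive factors. The sequences are RefSeq's on GRCm38.p6, 250 bases before the start, 5′ to 3′ on the gene's strand, with motif matches in capitals. Lcn2 lies at chr2:32384637-32387739 on the minus strand, with its window at chr2:32387740-32387989. Blvra is annotated at chr2:127070629-127097084 and its window is chr2:127070407-127070656 on the plus strand. The last bases of the Blvra window thus lie inside the annotated gene.
Lcn2: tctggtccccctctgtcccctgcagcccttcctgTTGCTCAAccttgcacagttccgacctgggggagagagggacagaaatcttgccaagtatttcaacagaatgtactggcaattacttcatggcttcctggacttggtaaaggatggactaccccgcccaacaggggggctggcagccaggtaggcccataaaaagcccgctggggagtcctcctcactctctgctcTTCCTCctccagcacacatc
Blvra: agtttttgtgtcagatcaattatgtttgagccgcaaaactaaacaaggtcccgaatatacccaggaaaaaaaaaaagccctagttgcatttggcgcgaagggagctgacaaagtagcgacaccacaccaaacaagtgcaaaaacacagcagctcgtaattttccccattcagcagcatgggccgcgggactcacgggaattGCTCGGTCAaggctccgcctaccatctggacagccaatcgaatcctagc
The motifs were chosen after values were seen, were searched on both strands and are a description of letters, not of binding. TTGCNNAA, of the C/EBP type, matched Lcn2 from 216 to 209 bases before the start and is found in 9.56% of the 32851 windows of all genes. A window of Fth1, which no comparison called, held 2 matches of the same motif. GAGGAA, the PU box core, matched the other strand of Lcn2 from 20 to 15 bases before the start and is found in 23.3% of windows. TGACNNNGC is the core of the antioxidant response element read by NRF2 and BACH1. It matched the other strand of Blvra from 49 to 41 bases before the start that its window uses, and is found in 10.2% of windows. Windows were present for 6 of the measured genes, 9 in all, and an NF-kB decamer, found in 7.25% of all windows, had 0 matches among those 9.

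The other genes of the pathway were read from 5 lists, on iron uptake and siderophores, on iron storage, export and regulation, on heme transport and degradation, on heme synthesis, and on mitochondrial iron and iron-sulfur clusters. Together they held 63 measured of 66 listed genes. After LPS in wild-type cells 3 of the 63 were called higher and 9 lower, against 3.99% and 6.86% of all genes. In the paired fit it was 3 higher and 16 lower, against 5.19% and 9.57% of all genes. The median difference was -0.06, against 0.04 over all genes. The count of 12 depended on single arrays: it was 4 without wild-type LPS array 1, and 3 without wild-type LPS array 3, unstimulated array 1 or unstimulated array 3, while it was 7 without knockdown array 1 and 8 without knockdown array 3.

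For uptake, 1 of 15 genes rose with LPS and 1 fell, against 3.99% and 6.86% of all genes. Slc39a14, the ZIP14 carrier of non-transferrin iron, was higher by 1.47 (SE 0.25, adjusted p = 0.00854), at 11.38, 10.53 and 11.51 in LPS-treated wild-type arrays, against 9.72, 9.64 and 9.66 in unstimulated arrays. Steap3, the endosomal ferrireductase that prepares iron for Slc11a2, fell by 1.27 (SE 0.15, adjusted p = 0.00215), at 9.06, 9.01 and 8.67 in LPS-treated wild-type arrays, against 10.39, 10.11 and 10.04 in unstimulated arrays. Both calls held under each of the 9 single-array omissions. Steap3 thus fell while its endosomal partner Slc11a2 rose.

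In storage, export and regulation, 1 of 15 genes rose with LPS and 1 fell, against 3.99% and 6.86% of all genes. Cp, the ferroxidase ceruloplasmin that works with ferroportin, read 10.48, 10.75 and 10.36 in LPS-treated wild-type arrays, against 6.49, 9.47 and 6.92 in unstimulated arrays. Its difference was 2.90 (SE 0.76, adjusted p = 0.0459), with 0.0531 in the paired fit, and its call held under 2 of the 9 single-array omissions, those of knockdown array 2 and unstimulated array 2. Aco1, the cytosolic aconitase that becomes an iron regulatory protein, fell by 0.33 (adjusted p = 0.0266), and without 4 single arrays, wild-type LPS 1 and 3 and unstimulated 1 and 3, the adjusted p reached 0.0914. Hamp, encoding the peptide hepcidin that removes ferroportin from the membrane, was singled out after its values were seen. It read 8.08, 9.0 and 7.32 in LPS-treated wild-type arrays, against 5.12, 6.98 and 5.36 in unstimulated arrays, a difference of 2.31 (adjusted p = 0.0829) that the paired fit called at 0.00374. It was also called without knockdown array 2 (0.0395) or unstimulated array 2 (0.0461).

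For heme transport and degradation, 0 of 11 rose with LPS and 1 fell, or 3 in the paired fit. Over all genes 6.86% were called lower, or 9.57% in the paired fit. Flvcr1, a heme exporter of the plasma membrane, fell by 1.07 (SE 0.26, adjusted p = 0.0359), at 10.09, 11.03 and 10.19 in LPS-treated wild-type arrays, against 11.38, 11.89 and 11.24 in unstimulated arrays. Its call held under 2 of the 9 single-array omissions, those of knockdown array 2 and wild-type LPS array 2, with an adjusted p of up to 0.133. Slc48a1, which carries heme out of the phagolysosome, differed by -0.25 (adjusted p = 0.0612), and the paired fit called it at 0.0328.

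For heme synthesis, 0 of 11 rose with LPS and 3 fell, or 5 in the paired fit. Over all genes 6.86% were called lower, or 9.57% in the paired fit. The list's median difference was -0.40, against 0.04 over all genes, with 9 negative and 2 positive differences. Alas1, the first enzyme of the pathway, was among the positive ones, at 0.19 (adjusted p = 0.237). Alad, which makes porphobilinogen, fell by 0.40 (SE 0.08, adjusted p = 0.0147). Fech, which inserts iron into protoporphyrin, fell by 0.53 (SE 0.13, adjusted p = 0.0359). Tmem14c, which moves protoporphyrinogen into the mitochondrial matrix, fell by 0.48 (SE 0.13, adjusted p = 0.0497). Those falls rested on single arrays to differing degrees: Alad was lost without wild-type LPS array 3 (0.0665) and after repeated quantile normalization, at -0.26 (0.0856), while Fech and Tmem14c each held under 3 of 9 omissions, those of knockdown arrays 2 and 3 and wild-type LPS array 2, with an adjusted p of up to 0.132 and 0.170.

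Among mitochondrial iron and iron-sulfur cluster genes, 1 of 11 rose with LPS and 3 fell, or 1 and 6 in the paired fit. Over all genes 3.99% were called higher and 6.86% lower, or 5.19% and 9.57% in the paired fit. Slc25a37, the mitochondrial iron importer mitoferrin 1, was higher by 1.90 (SE 0.48, adjusted p = 0.0418). Its call held without knockdown array 2 or unstimulated array 2 and was lost under the other 7 omissions, at up to 0.136. Isca1 and Glrx5, which serve cluster assembly, fell by 0.55 (adjusted p = 0.0150) and by 0.47 (adjusted p = 0.0230). Cisd1, the outer membrane protein mitoNEET, fell by 0.59 (adjusted p = 0.0356). Isca1 was lost without unstimulated array 1 (0.0507) or 3 (0.0634), and Glrx5 and Cisd1 each held under 4 of 9 omissions, with an adjusted p of up to 0.0793 and 0.119. Both were lost without wild-type LPS array 1 or 3 or unstimulated array 1 or 3, Glrx5 also without unstimulated array 2 and Cisd1 also without knockdown array 3.

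**Figure D4:**
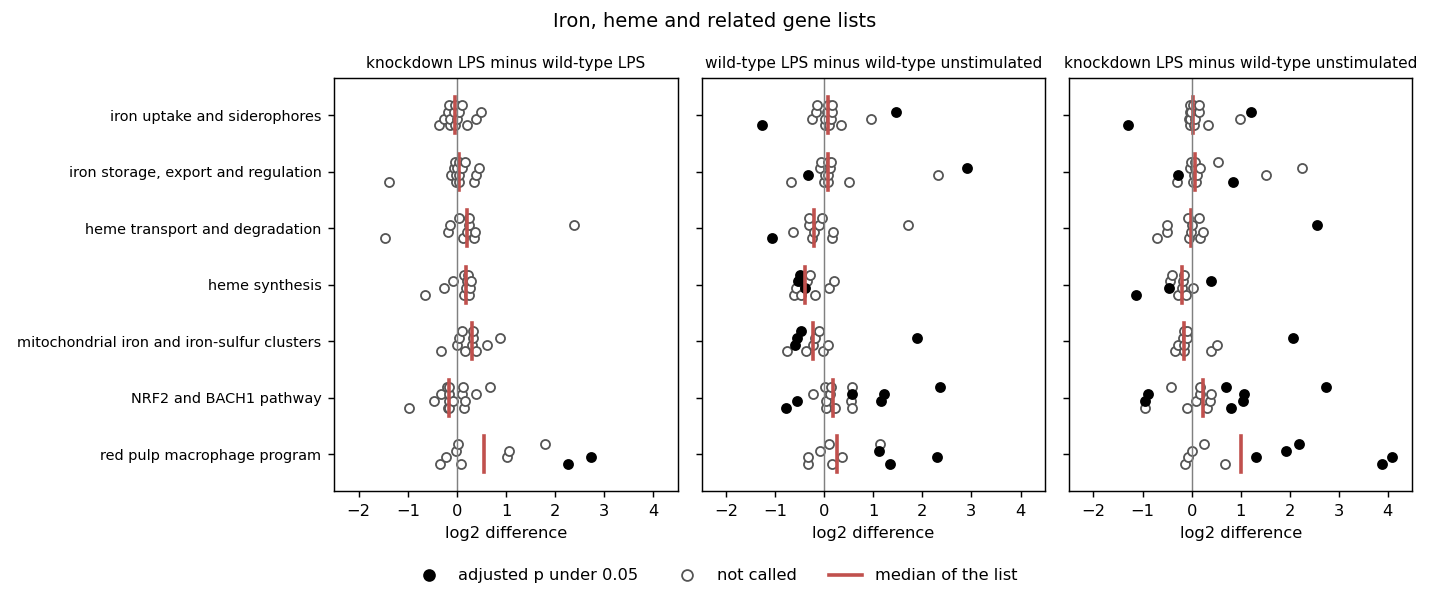
Log2 difference (horizontal axis) of each measured gene of 7 lists in the 3 comparisons, with each point a gene, filled points called genes and a vertical bar the list's median. For LPS in wild-type cells the heme synthesis genes lie mostly below 0, with a median of -0.40, and the mitochondrial genes also lie mostly below 0 with Slc25a37 apart at 1.90.

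Between knockdown and LPS-treated wild type, 0 of the 63 genes were called, while 12 had a positive and 3 a negative difference with a p under 0.05 before adjustment. Over all genes 0.762% were called, and 13.1% had such a p. The paired fit called 2 higher and 1 lower, against 1.51% and 1.24% of all genes. Lyrm4, a partner of the cysteine desulfurase in cluster assembly, read 11.15, 11.31 and 10.76 in knockdown arrays, against 10.24, 10.37 and 9.97 in LPS-treated wild-type arrays, a difference of 0.88 (adjusted p = 0.0520, and 0.00836 paired). Slc39a8, the ZIP8 metal carrier, differed by 0.48 (adjusted p = 0.104, and 0.0278 paired). Tmem14c differed by -0.66 (adjusted p = 0.0693, and 0.0205 paired). Flvcr2, a relative of Flvcr1, had the largest named difference of these lists, with 8.24, 10.22 and 7.99 in knockdown arrays, against 6.30, 6.45 and 6.54 in LPS-treated wild-type arrays. That difference of 2.39 (SE 0.49) had an adjusted p of 0.0775, and the groups did not overlap. Without knockdown array 2, the highest, it was 1.69 and was called (adjusted p = 0.00333).

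Between LPS-treated knockdown cells and unstimulated wild-type cells, 5 of the 63 were called higher and 4 lower, against 4.23% and 6.64% of all genes. In the paired fit it was 9 higher and 5 lower, against 5.62% and 8.65% of all genes. Flvcr2 was higher by 2.56 (adjusted p = 0.0147), Fbxl5, which senses iron and degrades iron regulatory protein 2, by 0.85 (0.0124) and Alas1, the first enzyme of heme synthesis, by 0.39 (0.0337). Tmem14c fell by 1.14 (adjusted p = 0.00175) and Steap3 fell by 1.30 (0.00176), both under each of the 9 omissions too. Flvcr2 was lost without unstimulated array 1 (0.0514) or 3 (0.0544), Fbxl5 without unstimulated array 3 (0.0514), and Alas1 under 6 of the omissions, all but knockdown 2, wild-type LPS 2 and unstimulated 2, at up to 0.127. The count of 9 was 3 without unstimulated array 1 and 2 without unstimulated array 3, 5 without knockdown array 1 or 3, and 6 without wild-type LPS array 1 or 3.

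Hmox1 and ferritin genes are known targets of NRF2 and of the heme-sensing repressor BACH1, so a list of that pathway was read beside them. After LPS in wild-type cells 4 of its 16 measured genes rose and 2 fell, against 3.99% and 6.86% of all genes. Maff, a small MAF partner of both factors, was higher by 2.36 (adjusted p = 0.00465), Txnrd1, a thioredoxin reductase, by 1.21 (0.00996) and Slc7a11, the cystine importer, by 1.15 (0.00609), all under each of the 9 omissions too. Sqstm1 was also called higher, by 0.56 (adjusted p = 0.0194). Osgin1 went the other way, at -0.78 (adjusted p = 0.0252), and Nqo1 differed by 0.04 with LPS (0.958). Between knockdown and LPS-treated wild type 0 of 16 were called, against 0.762% of all genes. Gsr, glutathione reductase, differed by 0.67 (adjusted p = 0.0700) and Nqo1, a quinone reductase, by -0.99 (0.318). Bach1 itself fell by 0.56 with LPS in wild-type cells (adjusted p = 0.0302), a call lost when any LPS-treated wild-type array, or unstimulated array 1 or 3, was left out, at up to 0.105. Its difference between knockdown and LPS-treated wild type was -0.33 (adjusted p = 0.333), and that between LPS-treated knockdown and unstimulated wild type, which combines both, was -0.89 (adjusted p = 0.00465).

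The macrophages of the splenic red pulp recycle red cell iron and express ferroportin under the factor Spi-C, which heme induces. Of 10 genes of that program, 2 were called higher and 0 lower between knockdown and LPS-treated wild type, Spic by 2.74 (SE 0.44, adjusted p = 0.0385) and Pparg, a lipid-sensing nuclear receptor, by 2.25 (adjusted p = 0.00673). Over all genes the shares were 0.401% higher and 0.361% lower. The list was chosen with earlier results of these data known. Of its 10 genes, 7 had a positive and 3 a negative difference in this comparison, and Vcam1 differed by -0.02 (adjusted p = 0.943). Spic read 11.29, 11.36 and 11.34 in knockdown arrays, against 8.71, 7.65 and 9.41 in LPS-treated wild-type arrays. Its call held without wild-type LPS array 2 or unstimulated array 2 or 3 and was lost under the other 6 omissions, with an adjusted p of up to 0.132, and that of Pparg held under all 9. The paired fit called 4 higher, against 1.51% of all genes, adding Treml4 at 1.79 (paired adjusted p = 0.0275) and Nr1h3 at 1.07 (0.0345). After LPS in wild-type cells 3 of the 10 rose, against 3.99% of all genes, Treml4 by 2.29 (adjusted p = 0.00970), Vcam1 by 1.33 (0.0211) and Nr1h3 by 1.11 (0.0469). The paired fit also called Pparg lower with LPS, at -0.33 (adjusted p = 0.0483, against 0.272 unpaired). Of the 3 that rose, Nr1h3 held under 1 of the 9 omissions, that of wild-type LPS array 1, and Vcam1 was lost without wild-type LPS array 1 or 3 or unstimulated array 1 or 3, at up to 0.0867.

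For the 3 called genes, the likest patterns over the 9 arrays were sought by Pearson correlation among all genes, as a description of arrays that share 3 groups. Nearest to Hmox1 were Vcam1 (r = 0.993), Eef1e1 (0.992) and Pofut2 (0.981). Nearest to Slc11a2 were Il1f9 (r = 0.990), Cxcl2 (0.989) and Clec4e (0.988). Nearest to Lcn2 were Znrf1 (r = 0.981), Slc7a11 (0.980) and Celf1 (0.974).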

How the data were processed

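Total RNA of 9 mouse cultures was hybridised to Affymetrix mouse gene arrays. The deposited values are log2 signals that the authors made with RMA, per the submitters' processing notes. Its version and probe annotation are not given in the sources used here. The arrays have no depth, and their number, 3 a group, limits the precision. Of 35556 probe sets, 21789 named 1 gene in the platform's gene table, 1621 named several and 12146 lay outside it. The brightest of a gene's probe sets by mean over the 9 arrays stood for the gene, which gave 19938 genes. Current symbols were taken from RefSeq by Entrez ID for 21698 probe sets.

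One mean per group was fitted over all 9 arrays with limma 3.58.1 (lmFit, eBayes, residual degrees of freedom 6) in R 4.3.3, with Benjamini-Hochberg adjustment over all genes and a threshold of 0.05. Tables were made with Python 3.11.15, pandas 2.3.3 and numpy 2.4.6. The fit was tested on simulated data of the 19938 genes, with 200 changed between knockdown and LPS-treated wild type. It called 81 of 97 genes changed by a log2 value of 1 and 101 of 103 changed by 2, with 8 false calls. The simulated noise was independent between arrays, whereas real arrays sharing a number deviated together. These counts thus check the code and do not give the power or error rate on the real arrays.

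The labels number the biological replicates 1 to 3 in each group and do not say that a number marks a shared culture. Deviations from the group means correlated at 0.138 to 0.481 between arrays sharing a number (9 pairs) and at -0.414 to 0.254 between arrays of different numbers and groups (18 pairs). The fit reported throughout has no block. Since the values, and not the labels, tie arrays of 1 number together, a paired fit with the number as a block is given beside it where it changes a call.

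The genes, the pathway and marker lists and the rule for naming genes were chosen with earlier results of these data known. Named genes are the members, up to 3 genes of each list with the smallest p in each comparison, and for called members the 3 genes with the highest correlation. Csf3r, Hamp, Osgin1, Sqstm1 and the markers below the median gene were named outside that rule, after their values were seen. Alternatives were the paired fit, a fit of only the 6 arrays compared, repeated quantile normalization, the mean of a gene's probe sets, a filter on genes under the 25th percentile, a trended robust prior, and leaving out each array or each replicate number.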

Additional observations from a re-analysis of the deposited data

How the results depend on the processing

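The paired fit with replicate block kept 3 higher calls among the 9 genes for LPS and added Slc40a1, kept 0 for knockdown and kept 3 for knockdown with LPS against no stimulation. Over all genes the knockdown count, otherwise 152, was 548 in it, and a fit of only the 6 arrays compared gave 33. Of the genes called among the 9 in LPS-treated knockdown against unstimulated wild type, the 6-array fit left 1. Among the other 63 iron and heme genes the LPS count of 12 was 19 in the paired fit and 7 with 6 arrays. The knockdown count of 0 was 3 paired, 2 after repeated quantile normalization, 1 with the dim filter and 1 with the trended robust prior. The count of 9 for LPS-treated knockdown against unstimulated wild type was 14 paired.

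Leaving out 1 array or 1 replicate number gave 0 to 6 calls among the 9 genes for LPS, 0 to 2 for knockdown and 0 to 5 for LPS-treated knockdown against unstimulated wild type. Over all genes those ranges were 12 to 4909 around 2164, 0 to 668 around 152 and 43 to 3803 around 2166. Among the other iron and heme genes they were 0 to 27, 0 to 7 and 0 to 19. Leaving out a replicate number leaves 2 arrays a group, and the number 2 omission gave the highest counts.

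Differences close to 0 changed sign when arrays were left out. For knockdown against LPS-treated wild type the ranges were -0.10 to 0.29 for Hmox1, -0.0442 to 0.13 for Slc11a2, -0.17 to 0.0728 for Blvrb and -0.19 to 0.0433 for Lcn2. For LPS in wild-type cells they were -0.15 to 0.66 for Tfrc and -0.0534 to 0.0062 for Fth1. For LPS-treated knockdown against unstimulated wild type they were -0.32 to 0.99 for Slc40a1, -0.0229 to 0.0358 for Fth1 and -0.0549 to 0.19 for Blvrb. Hmox1 missed the threshold for LPS after repeated quantile normalization, at an adjusted p of 0.0609, as did Alad at 0.0856. With 6 arrays, the LPS calls of Aco1 (0.0645), Cisd1 (0.0608), Cp (0.0671), Flvcr1 (0.0765), Slc25a37 (0.0841) and Nr1h3 (0.0865) and the knockdown call of Spic (0.0827) were lost. With the trended robust prior, the LPS calls of Cp (0.0525) and Tmem14c (0.0524) were lost. Cd163 was removed by the dim filter, so that setting gives no value for it. The cause of these changes was not tested.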
